A study of Mus musculus with 8 samples.

Results

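The vascular miRNAs miR-126, miR-143 and miR-145 were followed in mouse gastrocnemius muscle after cardiotoxin (CDTX) injury and spinal cord injury (SCI). Every RT-qPCR assay of a miRNA named miR-126, miR-143 or miR-145 was taken, from either arm of the hairpin, which gave 6 of the 755 assays of the panel. These were 2 assays of miR-126 (miR-126-3p and miR-126-5p) and 4 of miR-143 and miR-145 (2 assays of miR-143-3p, 1 of miR-145-5p and 1 of miR-145a-3p). miR-126 lies within an intron of Egfl7, a gene of endothelial cells, and is abundant in endothelium, where it is known to favour responses to vascular endothelial growth factor. miR-143 and miR-145 are made from a shared transcript and are abundant in smooth muscle cells, pericytes and fibroblasts, where they are known to sustain the contractile state. The comparison set the endothelial miRNA beside those of mural cells and fibroblasts over both days.

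The profiling covered 8 RNA pools, 1 for each combination of intramuscular injection (CDTX or PBS), surgery (SCI or SHAM) and day (D4 or D2). All mice were young adult female C57Bl/6, and all had surgery, either transection of the spinal cord or the SHAM operation. According to the methods, the left hindlimb of a mouse was injected with CDTX and its right one with PBS, and each pool held RNA of 3 muscles. With a single pool per condition there was no measure of the spread between mice. The p-values of the limma fits below rest on the spread between pools of different surgery. In them the variance of each assay was drawn towards that of all fitted assays. Exact permutation p-values rest on reassigning the injection over the 8 pools, whatever their day and surgery.

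Expression was read as Cp, the cycle at which the signal was called, where a later Cp means less miRNA and 36 marks the end of the run. Relative expression is given on the log2 scale as the mean Cp of 3 reference miRNAs (miR-125b-5p, miR-24-3p and miR-23b-3p) less that of the assay. An assay was fitted where its Cp was at most 32 in all 8 pools, which held for 123 assays and for 4 of the 6 studied here. Between 388 and 436 assays per pool gave no signal by cycle 36. At D4 the mean Cp of the references was 25.2 with SCI and 25.6 with SHAM in CDTX pools, against 25.2 and 25.4 in PBS pools. At D2 it was 25.5 in both CDTX pools, against 24.9 with SCI and 24.7 with SHAM in PBS pools. Of 8 miRNAs of striated muscle, the labelled tissue, 6 were fitted, among them miR-133a-3p at a Cp of 19.74 to 22.95. miR-208b-3p and miR-499a-5p of that list were detected late or not at all, with an earliest Cp of 33.73 and 35.15. miR-122-5p of liver gave no signal in any pool.

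The sequences of the miR-126 arms are shown because both arms were assayed and come from a single precursor. In the mature forms the capitals mark the seed, bases 2 to 8 from the 5′ end, and in the hairpin they mark both arms. The 3p arm and the hairpin are RefSeq sequences, and the 5p arm was taken from the assay list of the study and placed in that hairpin. On the plus strand of GRCm38.p6, the hairpin is at chr2:26591357-26591429, the 5p arm at chr2:26591365-26591385 and the 3p arm at chr2:26591402-26591423, inside Egfl7 (chr2:26581083-26592682).
miR-126-3p: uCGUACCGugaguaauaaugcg
miR-126-5p: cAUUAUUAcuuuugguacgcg
Mir126a hairpin: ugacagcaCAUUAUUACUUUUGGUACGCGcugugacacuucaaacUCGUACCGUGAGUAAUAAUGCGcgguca
The seeds differ between the arms, and among 750 assays with a listed sequence each was carried by 1 assay only, its own. The 2 assays of miR-143-3p are named for human and rat in the files, and the rat-named one targets 22 bases, against 21 for the human-named one.

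miR-126-3p, the arm most studied in endothelium, was among the readily detected miRNAs. Its Cp lay between 24.97 and 26.55 in the 4 CDTX pools and between 24.03 and 24.86 in the 4 PBS pools. Its log2 relative expression at D4 was -0.83 in CDTX + SCI and -0.94 in CDTX + SHAM, against 0.31 in PBS + SCI and 0.53 in PBS + SHAM. At D2 it was 0.54 in CDTX + SCI and 0.24 in CDTX + SHAM, against 0.58 in PBS + SCI and 0.65 in PBS + SHAM. Both CDTX pools of D4 thus lay below every other pool, while the CDTX + SCI pool of D2 fell within the range of the PBS pools.

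miR-126-5p, the other arm of the hairpin, was detected late, with a Cp of 31.12 to 33.08 in CDTX pools and of 30.64 to 31.54 in PBS pools. It was left out of the fit because 3 CDTX pools exceeded a Cp of 32. Its log2 relative expression at D4 was -7.53 in CDTX + SCI and -7.47 in CDTX + SHAM, against -6.37 in PBS + SCI and -5.84 in PBS + SHAM. As for the 3p arm, the lowest values were those of the 2 CDTX pools at D4. At D2 the values were -5.61 in CDTX + SCI and -6.53 in CDTX + SHAM, against -5.78 in PBS + SCI and -6.01 in PBS + SHAM, so that the CDTX pools lay on either side of the PBS pools.

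miR-143-3p, a miRNA of mural cells and fibroblasts, had a Cp of 27.01 to 27.71 in CDTX pools and of 25.77 to 26.48 in PBS pools by the human-named assay. Its log2 relative expression at D4 was -2.28 in CDTX + SCI and -2.10 in CDTX + SHAM, against -1.31 in PBS + SCI and -1.04 in PBS + SHAM. At D2 it was -1.497 in CDTX + SCI and -1.60 in CDTX + SHAM, against -1.13 in PBS + SCI and -1.09 in PBS + SHAM. All 4 CDTX pools lay below all 4 PBS pools. The rat-named assay ran earlier but ordered the injections in the same way, with -1.88 to -1.04 in CDTX pools and -0.73 to -0.52 in PBS pools. Over 12 pool-to-pool ratios the root mean square gap between the 2 assays was 0.10 on the log2 scale, and the widest gap was 0.19.

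miR-145-5p, which is co-transcribed with miR-143, had a Cp of 25.78 to 27.05 in CDTX pools and of 24.54 to 25.28 in PBS pools. Its log2 relative expression at D4 was -1.39 in CDTX + SCI and -1.44 in CDTX + SHAM, against -0.11 in PBS + SCI and 0.23 in PBS + SHAM. At D2 it was -0.27 in CDTX + SCI and -0.64 in CDTX + SHAM, against 0.02 in PBS + SCI and 0.14 in PBS + SHAM. The injections did not overlap here either. miR-145a-3p, the other arm, gave no signal by cycle 36 in any of the 8 pools and has no value.

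**Figure D1:**
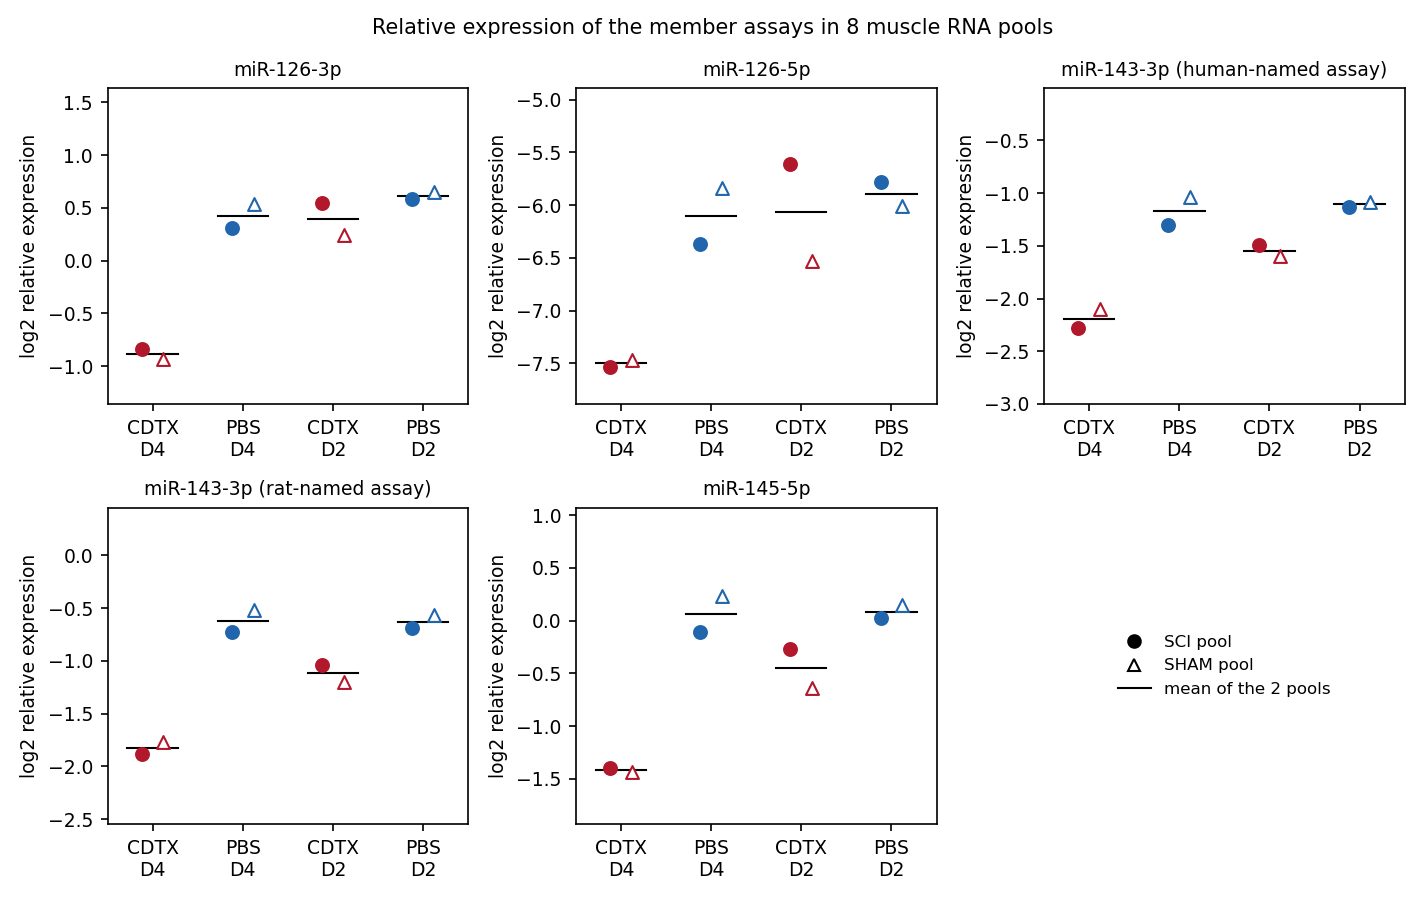
Log2 relative expression (y axis) of the 5 assays with a signal, by injection and day (x axis). Each point is 1 pool, filled circles for SCI and open triangles for SHAM, and the line is the mean of 2 pools; the y axes of all panels span 3 log2 units. The CDTX pools at D4 are the lowest in every panel.

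In relative expression, 3 of the 4 fitted assays (both of miR-143-3p and that of miR-145-5p) had all CDTX pools below all PBS pools, as did 35.0% of the 123 fitted assays. By Cp alone, with no reference, all 4 had every CDTX pool later than every PBS pool, as did 43.9% of the fitted assays. A lower level in whole muscle RNA can stand for fewer cells of a type or for less of the miRNA per cell, and these cannot be told apart here.

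The first comparison asked how CDTX injury changed these miRNAs at each day. At D4 all 4 fitted assays fell, to 0.404-fold for miR-126-3p, 0.494-fold and 0.434-fold for the human-named and rat-named assays of miR-143-3p, and 0.359-fold for miR-145-5p. Across the panel, 33.3% of the fitted assays were called lower at D4. In limma, with a mean per injection and day and a term for surgery, miR-126-3p changed by -1.31 ± 0.20 on the log2 scale (SE, 2 CDTX and 2 PBS pools of D4, with the spread estimated over all 8 pools; adjusted p = 0.000558). The change was -1.48 ± 0.21 for miR-145-5p (adjusted p = 0.000483), and -1.02 ± 0.18 and -1.20 ± 0.18 for the human-named and rat-named assays of miR-143-3p (adjusted p = 0.00146 and 0.000615). From the lowest, miR-145-5p stood at rank 19, miR-126-3p at rank 22 and the miR-143-3p assays at ranks 27 and 32 of 123, so that other miRNAs fell further than each of them. Each of the 4 calls held with every pool left out in turn.

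The pairs of pools with the same surgery showed the same direction at D4. For CDTX + SCI over PBS + SCI the log2 ratio was -1.15 for miR-126-3p, -0.98 and -1.16 for the human-named and rat-named miR-143-3p assays, and -1.29 for miR-145-5p. At least 2-fold lower were 3 of the 4, against 22.5% of the assays detected (Cp up to 32) in this pair. For CDTX + SHAM over PBS + SHAM the ratios were -1.47, -1.06, -1.25 and -1.67 in the same order, and 4 of 4 were at least 2-fold lower, against 24.3% of the assays. The 5p arm of miR-126 had ratios of -1.17 with SCI and -1.63 with SHAM. Fitted under a filter that kept assays with a Cp below 36 in all 8 pools, miR-126-5p changed by -1.40 ± 0.36 at D4 (limma, adjusted p = 0.0194). Both CDTX pools of D4 were beyond a Cp of 32 for this assay, at 32.75 with SCI and 33.08 with SHAM.

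At D2 the estimates relative to the references were closer to 0, and 1 of the 4 assays was called lower, that of the rat-named miR-143-3p, against 32.5% of the fitted assays. Its change was -0.49 ± 0.18 (limma, adjusted p = 0.0495), and the call was kept only without the CDTX + SCI pool of D2 (adjusted p = 0.0468) and lost on leaving out any of the other 7 pools (adjusted p up to 0.282). The human-named miR-143-3p assay gave -0.44 ± 0.18 (adjusted p = 0.0711) and miR-145-5p gave -0.53 ± 0.21 (adjusted p = 0.0619, and 0.0287 without the CDTX + SCI pool of D2). For miR-126-3p the estimate was -0.22 ± 0.20 (adjusted p = 0.364; 95% interval -0.68 to 0.23), and its sign turned, to 0.15, with miR-23b-3p as the only reference. The references themselves ran later in CDTX than in PBS pools at D2. By Cp alone, a setting added after seeing the data, miR-126-3p changed by -0.98 and miR-145-5p by -1.29 at D2. The human-named and rat-named miR-143-3p assays changed by -1.195 and -1.245. At D4 these changes by Cp alone were -1.46, -1.63, -1.17 and -1.355 in the same order. With CDTX and PBS pools blocked by surgery and day, 3 of the 4 were called at D2 (adjusted p = 0.0392 and 0.0326 for the human-named and rat-named miR-143-3p assays and 0.0475 for miR-145-5p). The deposited normalized values called the same 3, with changes of -0.73, -0.78 and -0.82 in that order (limma, adjusted p = 0.0144, 0.0115 and 0.0162). The references that match those values include miR-16-5p, which was itself called higher at D2 in the main fit (0.63, limma, adjusted p = 0.0155). Of all 123 assays, in either direction, the block called 81 and the deposited values 75, against 73 in the main fit. With SCI the log2 ratio of miR-126-3p at D2 was -0.04 and with SHAM -0.41. None of the 4 vascular assays was at least 2-fold lower at D2, against 18.9% of the assays with SCI and 17.0% with SHAM, where miR-145-5p had the lowest ratio of the 4, -0.78.

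**Figure D2:**
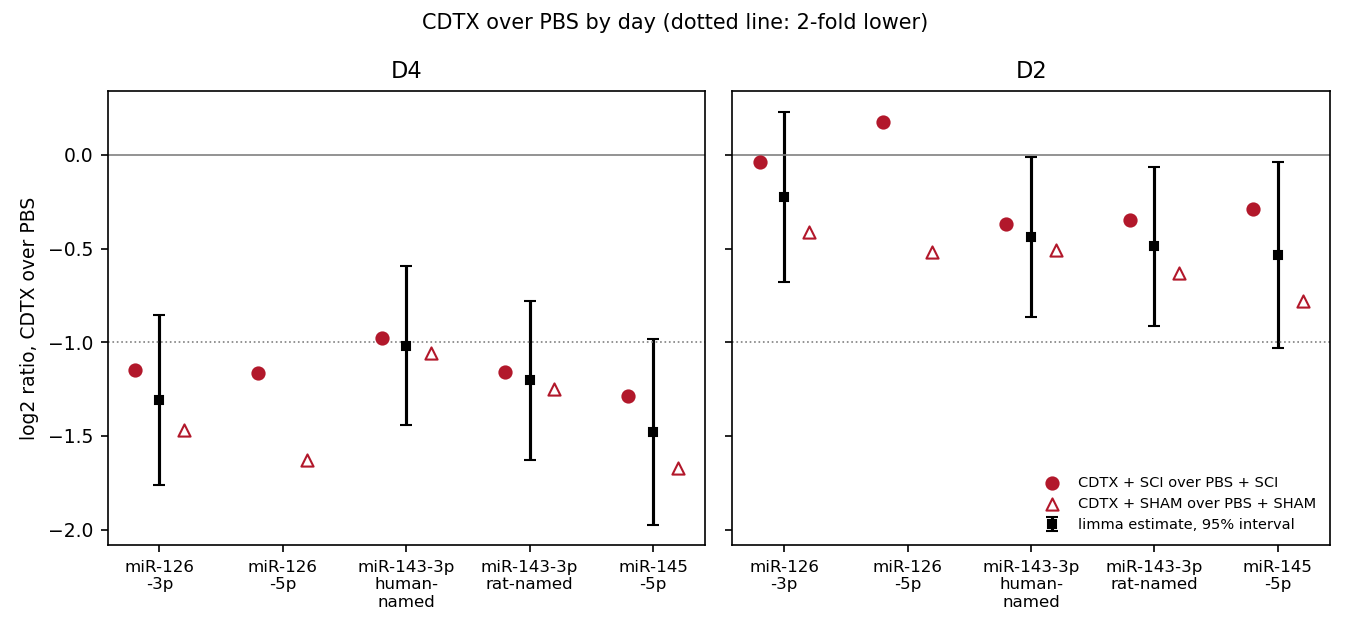
Log2 ratio of CDTX over PBS (y axis) for each assay (x axis) at D4 and D2. Filled circles are the SCI pair, open triangles the SHAM pair, and squares with bars are limma estimates with 95% intervals, drawn for the 4 fitted assays and not for miR-126-5p. At D4 all intervals lie below 0, whereas at D2 that of miR-126-3p spans 0.

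Between the days, miR-126-3p moved more than most miRNAs within CDTX muscle. It was 0.412-fold at D4 relative to D2 in CDTX pools, a change of -1.28 ± 0.20 (limma, adjusted p = 0.00496), which was the third lowest of 123 assays. miR-145-5p changed by -0.96 ± 0.21 (adjusted p = 0.0205), and miR-143-3p by -0.64 ± 0.18 and -0.71 ± 0.18 by the human-named and rat-named assays (adjusted p = 0.0344 and 0.0269). All 4 assays were called lower, against 10.6% of the fitted assays, though those of miR-143-3p and miR-145-5p come from a shared transcript. The call of miR-126-3p was lost without the CDTX + SHAM pool of D4 (adjusted p = 0.054). That of the human-named miR-143-3p assay was lost on leaving out any of the 8 pools (adjusted p up to 0.159), while the rat-named assay kept it only without a PBS pool of D4 (adjusted p up to 0.136 otherwise). miR-145-5p lost it without the CDTX + SCI pool of D2 (adjusted p = 0.0799), the CDTX + SCI pool of D4 (0.0569) or the CDTX + SHAM pool of D4 (0.126). With miR-125b-5p as the only reference, the call of miR-126-3p held (adjusted p = 0.0195), and the others were lost, at -0.37 and -0.43 for the human-named and rat-named miR-143-3p assays (adjusted p = 0.157 and 0.106) and -0.69 for miR-145-5p (adjusted p = 0.0709). The deposited values lost that of the human-named assay (adjusted p = 0.0654).

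In single pools, among assays with a Cp of at most 32 on both days, miR-126-3p had the lowest D4 over D2 ratio in CDTX + SCI (-1.38) and the fourth lowest in CDTX + SHAM (-1.18). At least 2-fold lower in CDTX + SCI were miR-126-3p and miR-145-5p (-1.13), 2 of the 4, against 9.03% of the assays. In CDTX + SHAM only miR-126-3p reached that size among the 4, against 4.14% of the assays, and miR-145-5p stood at -0.80. miR-126-5p, which was outside this Cp limit and not ranked, changed by -1.93 in CDTX + SCI and by -0.94 in CDTX + SHAM. The ratios of miR-143-3p were smaller, between -0.85 and -0.50 over both assays and surgeries.

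In PBS muscle no change between the days passed the test. D4 over D2 was -0.19 for miR-126-3p, -0.06 and 0.01 for the human-named and rat-named miR-143-3p assays, and -0.02 for miR-145-5p (limma, adjusted p = 0.994 for each). None of the 123 assays was called in PBS pools (0.0%), and 3 had an unadjusted p under 0.05. For miR-126-3p the 95% interval was -0.65 to 0.26.

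Whether the CDTX effect itself differed between D4 and D2 was tested as the difference of the 2 effects. It was -1.09 ± 0.28 for miR-126-3p (limma, adjusted p = 0.0715), the fifth lowest of 123, and -0.95 ± 0.30 for miR-145-5p (adjusted p = 0.113). The human-named and rat-named miR-143-3p assays gave -0.58 ± 0.26 and -0.72 ± 0.26 (adjusted p = 0.176 and 0.124). None of the 4 was called, against 4.07% of the fitted assays. With the global mean Cp as the reference miR-126-3p was called (-1.21, adjusted p = 0.0288), as it was with an intensity trend in the variance (adjusted p = 0.0318). By Cp alone its difference was -0.48 (limma, adjusted p = 0.274) and that of miR-145-5p -0.34. The human-named and rat-named miR-143-3p assays then gave 0.025 and -0.11.

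**Figure D3:**
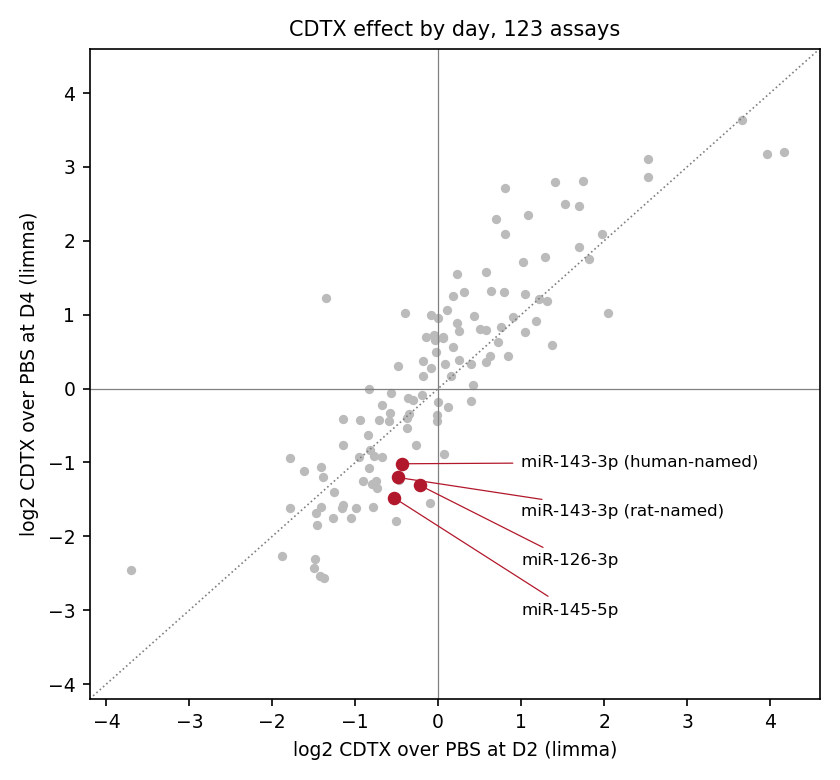
Limma estimates of the log2 ratio of CDTX over PBS at D4 (y axis) and D2 (x axis) for the 123 fitted assays. Red points are the vascular assays, grey points the others, and the dotted line marks equal effects; the 4 red points lie below it, between -0.53 and -0.22 at D2 and between -1.48 and -1.02 at D4.

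The endothelial and mural miRNAs were then compared directly within each pool, where the references cancel. At D4 the log2 level of miR-126-3p minus that of miR-143-3p (human-named assay) was 1.45 in CDTX + SCI and 1.16 in CDTX + SHAM, against 1.62 in PBS + SCI and 1.57 in PBS + SHAM. At D2 it was 2.04 in CDTX + SCI and 1.84 in CDTX + SHAM, against 1.71 in PBS + SCI and 1.74 in PBS + SHAM. By this assay the difference in CDTX muscle was thus above that of the PBS pools at D2 and below it at D4. By the rat-named assay the D4 values were 1.05 in CDTX + SCI and 0.83 in CDTX + SHAM, against 1.04 in PBS + SCI and 1.05 in PBS + SHAM, so that the CDTX + SCI pool was not below PBS. Over all pools the difference by the human-named assay averaged 1.62 ± 0.39 in CDTX and 1.66 ± 0.08 in PBS (SD, n = 4 each; 2-sided exact permutation p = 0.886, adjusted p = 0.886 over the 2 partners, smallest possible p 0.0286). Its changes at D4 and D2 have opposite signs and cancel in this average, and the CDTX SD includes the gap between the days. This test therefore cannot decide whether the miRNAs differ on either day. The rat-named assay turned the sign of CDTX minus PBS, to 0.08 (exact permutation p = 0.714).

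Against miR-145-5p the difference was wider in CDTX than in PBS in each of the 4 pairs of pools. CDTX minus PBS was 0.14 with SCI and 0.20 with SHAM at D4, and 0.25 with SCI and 0.37 with SHAM at D2. It averaged 0.69 ± 0.19 in CDTX and 0.45 ± 0.11 in PBS (SD, n = 4 each; 2-sided exact permutation p = 0.143, adjusted p = 0.286). The unpaired test missed the threshold. An exact sign-flip test over the 4 pairs gave p = 0.13, the smallest it can give, so that 4 pairs of 1 direction cannot pass it.

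A fit across all assays with a partner as the only reference, chosen after seeing the data, gave these differences a standard error. From D2 to D4 in CDTX pools, miR-126-3p changed by -0.64 ± 0.19 relative to the human-named assay of miR-143-3p (limma, adjusted p = 0.0157). Relative to the rat-named assay it changed by -0.57 ± 0.24 (adjusted p = 0.0405). Relative to miR-145-5p it changed by -0.32 ± 0.26 (adjusted p = 0.275; 95% interval -0.88 to 0.25). The unadjusted limma p was 0.00888 against the human-named assay and 0.0259 against the rat-named assay. So mild an adjustment means that many other assays were called in the same fits, and the calls are not particular to miR-126-3p. The call against the human-named assay was lost without the CDTX + SCI pool of D2 (adjusted p = 0.0618) or the CDTX + SHAM pool of D4 (adjusted p = 0.129), and that against the rat-named assay in 6 of 8 such fits, all but those without a PBS pool of D2 (adjusted p up to 0.259). The same difference in PBS pools was -0.13, against the human-named assay, and the difference of the 2 day changes missed the threshold (-0.51, 95% interval -1.12 to 0.11, adjusted p = 0.169; -0.37, -1.07 to 0.33, adjusted p = 0.369 against the rat-named assay). CDTX effects of miR-126-3p relative to the human-named assay of miR-143-3p were -0.29 at D4 (95% interval -0.73 to 0.15) and 0.22 at D2 (-0.22 to 0.65). Relative to the rat-named assay they were -0.11 at D4 (-0.60 to 0.39) and 0.27 at D2 (-0.23 to 0.76), and relative to miR-145-5p 0.17 at D4 (-0.40 to 0.74) and 0.31 at D2 (-0.26 to 0.88).

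**Figure D4:**
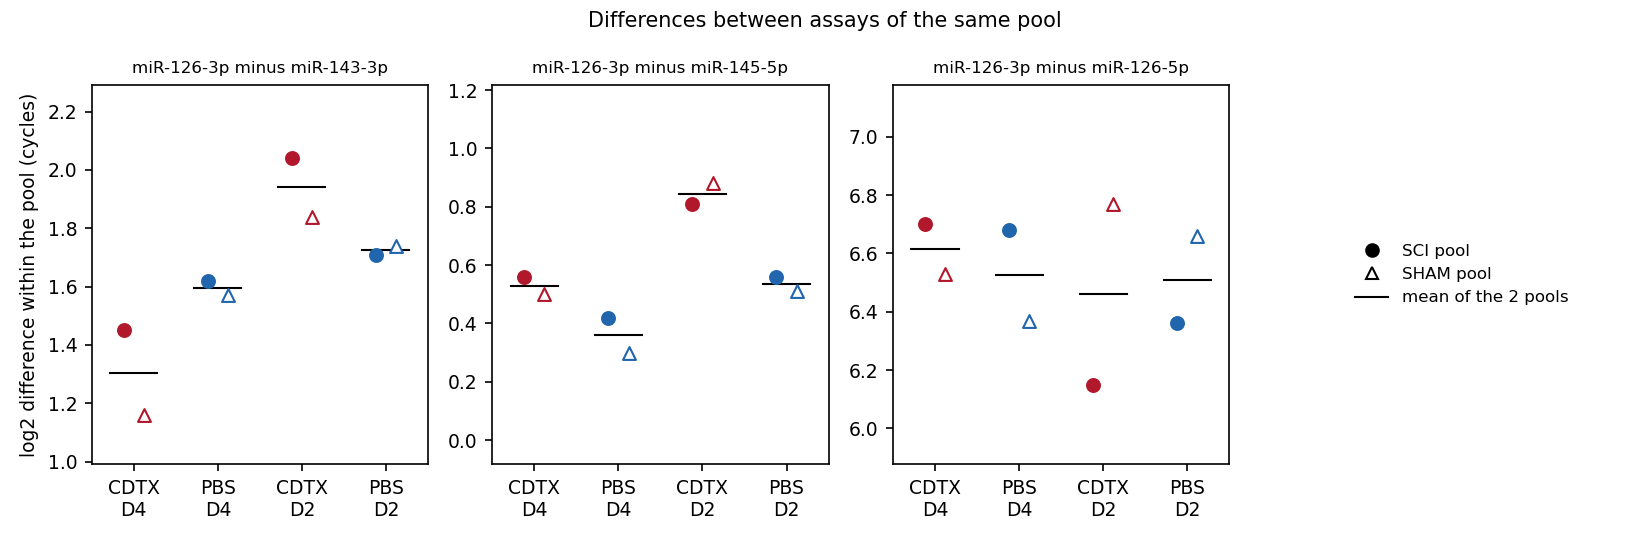
Difference in log2 level between miR-126-3p and miR-143-3p (human-named assay), miR-145-5p or miR-126-5p in the same pool (y axis, in cycles), by injection and day (x axis). Points are single pools, circles for SCI and triangles for SHAM, and lines are means of 2 pools; against miR-143-3p the CDTX pools lie above PBS at D2 and below it at D4.

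The distance between the arms of miR-126 ranged from 6.15 to 6.77 over the pools. miR-126-3p exceeded miR-126-5p by 6.54 ± 0.28 in CDTX and by 6.52 ± 0.18 in PBS on the log2 scale (SD, n = 4 each; 2-sided exact permutation p = 0.943). The assays may differ in efficiency, so this distance is no ratio of molecules. Over 12 pool-to-pool ratios the arms differed by a root mean square of 0.32 and by up to 0.62.

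No effect of surgery on these miRNAs was called. SCI minus SHAM, averaged over injections and days, was 0.03 for miR-126-3p (limma, adjusted p = 0.971; 95% interval -0.29 to 0.35) and -0.01 for miR-145-5p (adjusted p = 0.995; -0.36 to 0.34). The human-named and rat-named miR-143-3p assays gave -0.10 and -0.07 (adjusted p = 0.841 and 0.877). None of the 123 assays was called for surgery (0.0%), and 16 had an unadjusted p under 0.05. In CDTX muscle at D2, CDTX + SCI over CDTX + SHAM was 0.30 for miR-126-3p, 0.10 for miR-143-3p by the human-named assay and 0.37 for miR-145-5p. At D4 the ratios were 0.10, -0.19 and 0.04 in the same order. Over all assays detected in these pairs the median was -0.135 at D2 and -0.31 at D4. At D4, 18 of 168 assays were at least 2-fold lower with SCI and 0 higher. These ratios of single pools have no test.

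Over the 8 pools the miRNAs whose relative expression was most like that of miR-126-3p were miR-150-5p, a lymphocyte miRNA (Pearson r = 0.977), miR-145-5p (0.958), miR-143-3p by the human-named and rat-named assays (0.937 and 0.933) and miR-195-5p (0.923). miR-150-5p changed by -1.55 at D4 and by -0.10 at D2, and was the only assay called lower in the difference of the 2 days. For miR-143-3p the most alike were miR-145-5p (0.986), miR-181a-5p (0.977), miR-30c-5p (0.962), miR-30a-5p (0.961) and miR-22-3p (0.961). miR-145-5p was most like miR-143-3p (0.992 and 0.986 by the rat-named and human-named assays), followed by miR-30a-5p (0.965), miR-100-5p (0.961) and miR-126-3p (0.958). The points of these correlations share pools and references, and they describe the 8 pools only.

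Other miRNAs linked to vessels moved in both directions. Of a list of 22 miRNAs of endothelial cells and vessel growth, 12 were fitted. At D4, 4 were called higher and 3 lower, with a median of 0.37. Of all 123 fitted assays 39.0% were called higher and 33.3% lower at D4, with a median of 0.17, so that the shares of the list were close to those of the panel. The highest were miR-17-5p (2.09) and miR-20a-5p (1.75) of the miR-17-92 cluster, known for roles in proliferation and angiogenesis. The lowest were miR-10b-5p (-1.79) and miR-101-3p (-1.75). At D2, 4 were called higher and 2 lower, with a median of 0.20, against 26.8% higher and 32.5% lower and a median of -0.08 over all fitted assays. miR-24-3p, on this list, is also a reference miRNA.

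Among other miRNAs linked to mural cells and fibroblasts, more were called higher than lower. Of a list of 13, 11 were fitted, and at D4 7 were called higher and 3 lower, against 39.0% and 33.3% of the panel, with a median of 1.58 against 0.17. The highest were miR-214-5p (3.11), which shares a transcript with miR-199a in mesenchymal cells, and miR-21-5p (2.87), known to rise in fibrotic tissue. Also among those called higher were miR-214-3p (2.48), miR-199a-5p (2.35) and miR-199a-3p (1.58) of that shared transcript. The count and the median are thus not of independent miRNAs. The lowest were miR-133a-3p (-2.26), which is chiefly a miRNA of muscle fibers, and miR-29c-3p (-1.75), known to repress collagens. At D2, 5 were called higher and 3 lower, against 26.8% and 32.5% of the panel, with a median of 0.63 against -0.08.

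Markers of striated muscle and of leukocytes moved with the injections. The summed relative expression of the 8 striated muscle miRNAs was 17.2 to 26.0 in CDTX pools and 69.5 to 106 in PBS pools, on the linear scale relative to the references. Of the 6 fitted, 5 were called lower and 1 higher at D4 (miR-206, a miRNA of myoblasts and regenerating fibers), against 33.3% and 39.0% of the panel, and 6 were called lower at D2, against 32.5%. The 6 leukocyte miRNAs summed to 1.80 to 3.18 in CDTX pools and 0.402 to 0.439 in PBS pools. Of the 3 fitted, 2 were called higher and 1 lower at D4, and 2 higher at D2, where 26.8% of the panel was. Sums of the 2 red blood cell miRNAs overlapped, at 0.0113 to 0.0256 in CDTX and 0.0112 to 0.0313 in PBS pools. The 3 neuronal miRNAs summed to 0.0139 to 0.0202 in CDTX and 0.0215 to 0.0237 in PBS pools, and the 5 epithelial ones to at most 0.00492 in CDTX and 0.00204 in PBS pools. None of the red blood cell, neuronal and epithelial miRNAs was fitted, as each had a Cp above 32 in some or all pools. Their sums have no test. The part of these shifts in the lower levels of miR-126, miR-143 and miR-145 was not tested.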

How the data were processed

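The authors deposited Cp values of 755 LNA RT-qPCR assays (3 not of a miRNA), found by the second derivative maximum and not normalized. A second table deposited by the authors gives a ratio to reference miRNAs. It matched a formula with 4 references (miR-125b-5p, miR-16-5p, miR-24-3p, miR-23a-3p; largest log2 gap 0.0067), whereas their methods name 3, and served as an alternative. Of these, miR-16-5p was called higher with CDTX in the main fit at D4 (0.44, limma, adjusted p = 0.0460) and at D2 (0.63, adjusted p = 0.0155). Another table holds the authors' own fold changes and was not used. Groups came from the sample labels.

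Relative expression used the 3 references, which are among the 123 fitted assays. Limma 3.58.1 (R 4.3.3) fitted 1 mean per injection and day plus surgery over 8 pools, which leaves 3 residual degrees of freedom per assay. Its empirical Bayes step added 4.84 prior degrees of freedom from the spread of all fitted assays. The p-values were adjusted by Benjamini-Hochberg over 123 assays (threshold 0.05). The fit was tested on simulated data. Permutation tests were run in Python 3.11.15 with scipy 1.17.1. Ratios of 2 pools needed a Cp of at most 32 in both and were read by a size of 2-fold.

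Named were every assay of miR-126, miR-143 and miR-145, the 5 miRNAs most like each, and the 2 highest and 2 lowest of each vascular list at D4; other miRNAs were named after their values were seen. Members and lists were chosen with earlier results of these data known. Alternatives covered references, Cp filters, assays, the variance prior, pairing and single pools.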

Additional observations from a re-analysis of the deposited data

How the results depend on the processing

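The CDTX effect at D4 was called for the 4 fitted vascular assays under every alternative run, with log2 changes of -1.695 to -1.06 for miR-126-3p, -1.41 to -0.77 and -1.59 to -0.95 for the human-named and rat-named miR-143-3p assays, and -1.87 to -1.23 for miR-145-5p (limma, adjusted p up to 0.0203). Over all member results, 381 settings kept direction and side of the threshold, 18 gained a call, 37 lost one and 30 turned the sign of an estimate that was not called either way. miR-126-3p at D2 was called with miR-24-3p alone (-0.48, adjusted p = 0.0405) and with no reference (-0.98), a setting added after seeing the data. Counts over all assays depended on the Cp filter, which also changes how many assays are tested, so that these counts cannot be compared as shares. With a Cp of at most 30 they were 46 at D4, 39 at D2, 2 for the difference of the days and 15 for D4 over D2 in CDTX pools, against 89, 73, 5 and 39 as reported. With a Cp below 36 they were 154 at D4 and 8 for the difference, and 9 with at most 32 in at least 4 pools. The count for the difference was 12 with the global mean, 0 with miR-24-3p alone, 16 with miR-125b-5p alone and 56 with no reference, which also called 10 for D4 over D2 in PBS pools. Leaving out single pools gave 46 to 75 calls at D2, 0 to 15 for the difference and 5 to 33 for D4 over D2 in CDTX pools. CDTX minus PBS of miR-126-3p minus miR-143-3p was -0.04, 0.08 with the rat-named assay and -0.18 to 0.12 on leaving out a pool, and its D4 over D2 change in CDTX pools was -0.74 to -0.53. The cause of these shifts was not tested.

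At least 2-fold lower at D4 with SCI were 3 of 4 vascular assays, and 4 with the global mean, miR-24-3p alone, the deposited values or a 1.5-fold rule, 1 with miR-125b-5p alone and 0 at 3-fold. The count over all assays moved as well, from 32 as reported to 37, 43, 40 and 46 in these 4 settings and 22 with miR-125b-5p alone. With SHAM at D4 the count of the 4 was 3 with miR-125b-5p or miR-23b-3p alone and 1 at 3-fold, and at D2 it was 1 with the deposited values and 2 at 1.5-fold. The SHAM pair had 33 of all assays lower at D4 as reported, 27 with miR-125b-5p and 29 with miR-23b-3p alone, and 24 at D2 as reported. Over all assays 3-fold gave 12 with SCI and 18 with SHAM at D4, and 7 and 9 at D2, where 1.5-fold gave 44 and 41, miR-23b-3p alone 11 and 13, and the deposited values 38 with SHAM. The labels give no replicate numbers. With surgery and day as a block, the human-named miR-143-3p assay (adjusted p = 0.0392) and miR-145-5p (adjusted p = 0.0475) gained a call at D2. This block called 81 of all 123 assays at D2. Assays near a Cp of 32, such as miR-126-5p, are the least precise.

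The sign turned in these settings. For miR-126-3p it did with miR-23b-3p alone, at D2 (0.145) and for SCI (-0.045), and SCI gave -0.063 to 0.11 on leaving out a pool. For the human-named miR-143-3p assay, the difference of the days was 0.025 with no reference, D4 over D2 in PBS pools was 0.10 with miR-23b-3p alone and -0.18 to 0.05 without a pool, and SCI was 0.035 with the global mean and 0.0075 with no reference. For the rat-named assay, D4 over D2 in PBS pools was -0.016 with the global mean, -0.065 with miR-24-3p alone, -0.085 with miR-125b-5p alone, -0.0088 with the deposited values, -0.485 with no reference and -0.085 to 0.098 without a pool, and SCI was 0.063 with the global mean, 0.0025 with miR-125b-5p alone and 0.035 with no reference. For miR-145-5p, D4 over D2 in PBS pools was 0.145 with miR-23b-3p alone and -0.24 to 0.20 without a pool, and SCI was 0.123 with the global mean, 0.0625 with miR-125b-5p alone, 0.021 with the deposited values, 0.095 with no reference and -0.14 to 0.097 without a pool.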
